A study of Mus musculus with 6 samples.

Results

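The circadian clock genes Clock, Arntl, Per1, Per2, Per3, Cry1, Cry2, Nr1d1, Nr1d2 and Dbp were followed on 6 expression arrays of mouse neural stem cells. Their probe sets were taken by gene symbol, keeping those that the platform annotation pairs with 1 symbol, which gave 23 of the 45101 probe sets and at least 1 for each of the 10 genes. Arntl, listed under that symbol, is also called Bmal1. Total RNA came from neural stem cells (NSCs) of C57BL/6JRj mice, an inbred laboratory strain, 3 samples being young (mice aged 6 weeks) and 3 old (9 months). No genotype change or treatment is named for either age. The labels do not give the time of day of collection, the number of animals, or whether the cells were cultured, and each of these limits what can be read from clock genes. Separate animals or cultures are not named for the replicates either, so that every p-value below rests on a spread that may be technical.

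The clock of mammalian cells is a feedback loop in transcription. CLOCK and ARNTL form a pair that binds E-box letters and switches on the Per and Cry genes, whose proteins then hold that pair back. A second loop is made by the nuclear receptors NR1D1 and NR1D2, which repress Arntl through ROR elements, and DBP, TEF and HLF make a further one: they activate genes through D-box letters that the repressor NFIL3 also binds. In tissues with a running clock the transcript of Arntl peaks at about the opposite time of day to those of Nr1d1 and Dbp.

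Values are deposited log2 levels made by GCRMA, which takes off a background that depends on the letters of each probe, puts the arrays on 1 scale and merges the probes of a set into 1 value. A level is given here on that log2 scale, so a difference of 1 is a 2-fold change. The lowest level on any array was 2.14, shared by 38.3 to 40.4% of probe sets on each array. A probe set was tested if 3 or more of the 6 arrays read over log2 4, and that level stands in for background because no detection calls were used here. Arrays of 1 age correlated at 0.979 to 0.995 across tested probe sets and arrays of different ages at 0.915 to 0.944, where probe sets are not independent replicates. The second principal component, which held 9.93% of the variance, spread the young arrays. Young replicates 1, 2 and 3 lay at 34.6, -42.6 and 14.5 on this second component, and the old ones at -6.95, 0.97 and -0.53. The mean of 18 hybridisation control probe sets was 13.24 ± 0.28 on young and 12.28 ± 0.098 on old arrays (log2, SD, n = 3), and its part in the results was not tested.

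The cells carried most of the listed transcripts of neural stem cells, along with listed transcripts of astrocytes and of the oligodendrocyte lineage. Of 8 markers of neural stem cells and radial glia 7 lay above log2 4, Prom1 being the exception. The sum of all 8, taken on the linear scale and given as log2, was 16.545 to 16.567 on young and 16.494 to 16.509 on old arrays. Within this list Nes had a log2 difference of -0.46 and Msi1 one of 0.52 (adjusted p = 0.00746 and 0.00712, limma). The other 5 tested did not pass. All 7 markers of microglia and macrophages and all 5 of endothelium stayed under log2 4 on every array, as did 7 of 8 of mural cells and fibroblasts, all but Acta2. Of 3 ependymal markers 2 were above log2 4 on at least 1 array, and both passed, Foxj1 higher and Ccdc153 lower in old cells. All 6 astrocyte markers were above log2 4, and their sum was 13.33 to 13.41 on young and 14.25 to 14.36 on old arrays. Gja1 was the brightest of them and weighed most in the sum, with means of 12.58 in young and 13.94 in old cells. Aldh1l1, Aqp4, Gja1 and S100b rose, Slc1a2 fell (log2 difference -0.64) and Gfap did not pass. For 7 oligodendrocyte lineage markers, with Mbp, Mog and Sox10 under log2 4 throughout, the sum was 14.15 to 14.25 on young and 14.20 to 14.31 on old arrays. The brightest were Olig1 (mean 13.15 in young and 13.19 in old cells) and Olig2 (13.17 and 13.26), which weighed most in that sum. Within this list Cspg4 fell 3.98-fold and Pdgfra 2.72-fold (adjusted p = 0.000184 and 0.00854, limma), while Olig1 and Olig2, the other 2 tested, did not pass. The 7 markers of neuroblasts and neurons summed to 13.77 to 13.82 on young and 13.81 to 13.86 on old arrays, with Rbfox3, Stmn2 and Syt1 under log2 4 throughout. That sum was close to the level of Map2 alone, which was 13.68 to 13.86 over the 6 arrays. The early neuronal tubulin Tubb3 had means of 9.50 in young and 3.83 in old cells, with 1 old array above log2 4. Its 3 young arrays were enough to pass the filter, so its values are given as a description. Dcx read 5.36, 5.03 and 3.17 on young arrays and 2.14 on each old one, and was not tested. Snap25 read 4.38 to 5.26 on young and 3.51 to 3.82 on old arrays, and passed the filter through its young arrays alone. Acta2 also fell, by 1.33 on the log2 scale (adjusted p = 0.0419, limma). The part of these marker differences in the clock gene results was not tested. In samples of bulk RNA, a change in the share of cells of a type and a change in RNA per cell cannot be told apart.

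Old neural stem cells held less Arntl and more Clock, Per2, Per3, Nr1d2 and Dbp transcript than young ones. Arntl fell 2.14-fold, and the rises were smaller, from 1.28-fold for Per3 to 1.64-fold for Dbp by the brightest probe set of each gene. The Per3 call held under 8 of 14 other settings. Per1, Cry1, Cry2 and Nr1d1 did not pass the test. Beyond these 10 genes, the D-box repressor Nfil3 read 6.32 to 6.82 on young arrays and 2.15 to 2.41, near the floor, on old ones, and the Arntl paralog Arntl2 rose 3.82-fold.

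Of the 23 probe sets 15 were tested, and each of the 10 genes had at least 1 among them. In limma with Benjamini-Hochberg adjustment over all tested probe sets, 9 of the 15 passed an adjusted p of 0.05, 8 higher and 1 lower in old cells. Over all 19858 tested probe sets 36.6% passed, 20.1% higher and 16.5% lower. By the brightest tested probe set of each gene, 6 of the 10 clock genes passed, 5 higher and 1 lower, where 40.6% of 10050 named genes passed, 22.0% higher and 18.5% lower. The 3 old arrays lay wholly above or below the 3 young ones at 10 of the 15 clock probe sets, 9 above and 1 below, and at 55.3% of all tested probe sets. The median log2 difference of the 15 was 0.42, against 0.01 over all tested probe sets, and the median size of the difference was 0.52 against 0.25. These 10 genes are too few for their share to be set apart from the background, and no test of the list was made. Without young replicate 2, 10 of the 15 passed, and without old replicate 3, 6 of them.

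**Figure D1:**
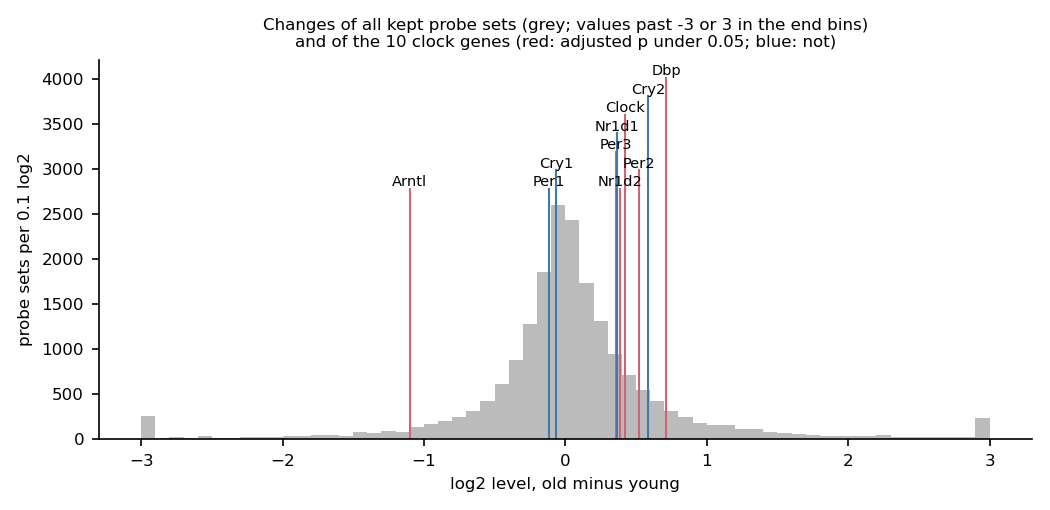
Histogram of the log2 difference, old minus young, of all 19858 tested probe sets, with a line for the brightest tested probe set of each of the 10 clock genes. Arntl stands alone on the left at -1.10, Per1 and Cry1 lie near 0, and the other 7 lie between 0.36 and 0.71.

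The remaining 8 probe sets lay between 2.14 and 2.73 on every array and carry no usable level. They are Arntl 1457740_at, Nr1d2 1416959_at, Per2 1417603_at and 1457350_at, and Per3 1421086_at, 1441445_at, 1458176_at and 1460662_at. All 8 belong to genes with another probe set that was tested, and 1458176_at of Per3, for example, read 2.14 on 5 arrays and 2.19 on old replicate 3.

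Promoter letters of the clock genes are given before the values, since the loops act through such letters. RefSeq windows of build GRCm38.p6, from 250 bases before to 50 bases after each annotated start, were searched on both strands for the E-box CACGTG, the D-box TTANGTAA, the ROR element ANTNGGTCA and the cAMP response element TGACGTCA. Windows were found for 9 of the 10 clock genes, Per2 having none in the table, and for 20 of 23 genes when the other clock transcription factors were added. Among all 32851 windows 7.15% held the E-box, 2.32% the D-box, 2.24% the ROR element and 1.79% the cAMP response element. Of the 9 clock genes with a window, 2 held an E-box (Per1 and Cry1), 1 a D-box (Per3) and 1 a ROR element (Arntl). Some of these genes have several windows, and the percentages above count windows. By window, 2 of their 13 held an E-box, 1 a D-box, 1 a ROR element and 0 the cAMP response element. No match overlapped another. Sites outside these windows and letters that differ from these motifs were not searched. A gene without a match here may therefore still hold such elements. The stretches below are those of the clock genes with a match and of 3 partners described later, Ciart, Tef and Nfil3, with the matched letters in capitals. Other partners also held a match and are not printed. These are an E-box in Bhlhe41 and Cipc, a D-box in Rorb and Timeless, and the cAMP response element in Hlf. Whether a match goes with the direction of change was not tested. Each is written 5′ to 3′ on the strand of its gene, and positions count the first transcribed base as 1.
Arntl, chr7:113207529-113207557, plus strand, ROR element at 29 to 37 past the start: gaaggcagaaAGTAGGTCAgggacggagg
Nfil3, chr13:52981040-52981071, minus strand, ROR element on the opposite strand at -12 to -4: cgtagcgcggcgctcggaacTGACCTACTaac
Per3, chr4:151044796-151044890, minus strand, D-boxes at -205 and -158: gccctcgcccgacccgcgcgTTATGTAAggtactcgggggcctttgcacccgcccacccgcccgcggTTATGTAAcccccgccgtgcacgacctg
Per1, chr11:69098763-69098808, plus strand, E-box at -166: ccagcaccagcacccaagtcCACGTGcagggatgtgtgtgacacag
Cry1, chr10:85185089-85185134, minus strand, E-box at -60: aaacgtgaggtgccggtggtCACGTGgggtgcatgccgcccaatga
Tef, chr15:81802526-81802571, plus strand, E-box at -127: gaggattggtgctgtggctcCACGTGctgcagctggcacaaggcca
Tef, another annotated start, chr15:81811256-81811301, plus strand, E-box at -138: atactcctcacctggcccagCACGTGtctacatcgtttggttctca
Ciart, chr3:95882247-95882364, minus strand, E-boxes at -116, -58 and -44: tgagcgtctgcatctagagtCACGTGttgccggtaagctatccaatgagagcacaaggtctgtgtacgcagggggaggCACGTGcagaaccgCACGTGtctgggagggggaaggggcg

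The positive arm of the loop went both ways. Clock, the partner of Arntl in the activating pair, read 12.04, 11.97 and 11.91 on the young arrays and 12.41, 12.40 and 12.38 on the old arrays at its brightest probe set, 1418659_at. All old arrays lay above all young arrays, and the old ones differed from each other by far less than the young ones. The log2 difference was 0.42 with a standard error of 0.051, a 1.34-fold rise (adjusted p = 0.0028, limma). Probe set 1435775_at read 9.61, 9.30 and 9.39 on young arrays and 10.07 on each old array, a difference of 0.64 (adjusted p = 0.00427, limma). Probe set 1418660_at rose by 0.59 (adjusted p = 0.0235, limma), a call that was lost on leaving out any 1 old array. The dim Clock probe set 1439314_at read 3.51, 5.16 and 3.96 on young arrays and 4.26, 4.02 and 4.02 on old ones, with overlapping ages and an adjusted p of 0.853 in limma. It lay above log2 4 on 1 young array, replicate 2, and on all old arrays, and its difference of -0.11 turned to 0.36 without young replicate 2.

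Arntl, the partner of Clock and the gene whose loss stops the clock in mice, read 7.96, 7.85 and 7.85 on the young arrays. On the old arrays it read 6.50, 6.75 and 7.12. Every old array lay below every young one, and the old arrays were spread over a wider range than the young ones. Mean levels were 7.89 ± 0.066 in young and 6.79 ± 0.31 in old cells (log2, SD, n = 3). The log2 difference was -1.10 with a 95% interval from -1.51 to -0.69 (adjusted p = 0.00533, limma). Arntl was the single clock gene of the 10 that fell, and under all 14 other settings tried its difference stayed between -1.26 and -0.95. The annotated start with the ROR element printed above is 1 of 2 listed for Arntl, and the array does not tell transcripts of the 2 starts apart.

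**Figure D2:**
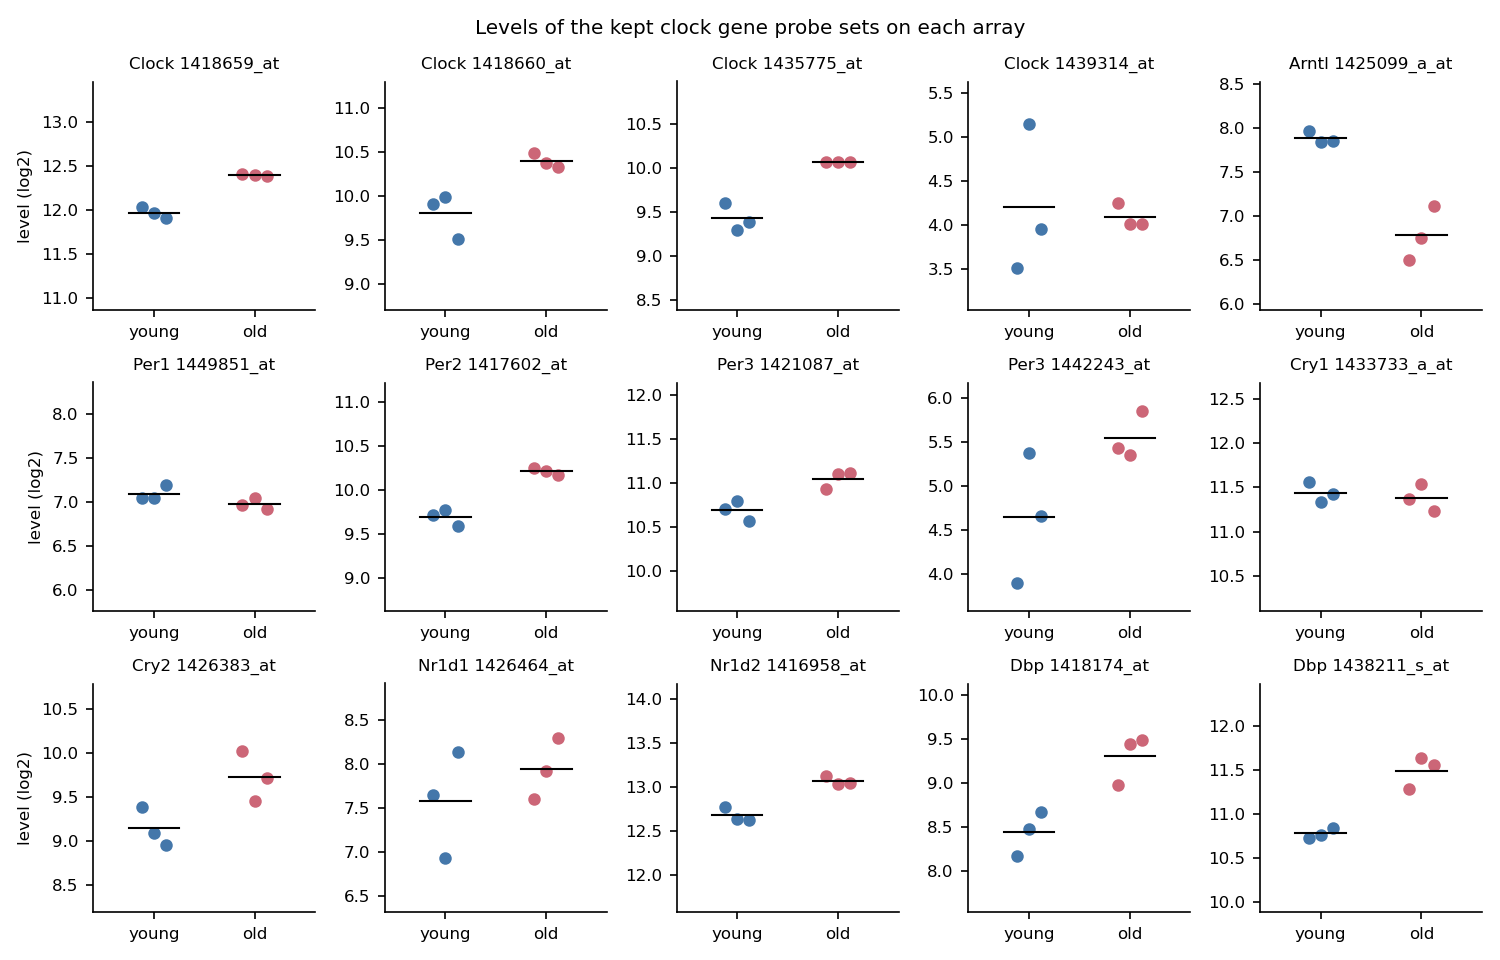
Level (log2) of each tested clock gene probe set on the 3 young arrays (blue) and the 3 old arrays (red), with a black line at each mean; every panel spans the same 2.6 log2 units. Arntl shows the drop from 7.89 to 6.79, while Per2, Nr1d2, both Dbp probe sets and 3 of the 4 Clock probe sets show old arrays wholly above young ones.

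Among the Per genes, whose proteins carry the negative arm, Per2 and Per3 rose. Per2 read 9.72, 9.77 and 9.59 on young arrays and 10.25, 10.22 and 10.18 on old arrays at 1417602_at, its 1 tested probe set. The ages did not overlap, and the gap between them was wider than the spread within either. The log2 difference was 0.52 with a 95% interval from 0.36 to 0.68, a 1.44-fold rise (adjusted p = 0.0028, limma). It was called under every setting tried.

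Per3, the member of the family that is not needed for rhythm in mice, read 10.71, 10.80 and 10.57 on young arrays and 10.93, 11.11 and 11.11 on old arrays at 1421087_at. The ages were separate, though the lowest old array was close to the highest young one. The difference was 0.36 (standard error 0.086, adjusted p = 0.0253, limma), which no longer passed when young replicate 1 or 3, or old replicate 2 or 3, was left out. Its dimmer probe set 1442243_at read 3.89, 5.37 and 4.66 on young and 5.43, 5.35 and 5.85 on old arrays, with overlapping ages. There the difference was 0.90 (adjusted p = 0.127, limma) and was called without young replicate 2 alone, at 1.27. With the mean of both probe sets in place of the brighter, Per3 had a difference of 0.63 that did not pass (adjusted p = 0.0531, limma). Per3 is the clock gene whose window held 2 D-boxes.

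Per1, which responds fastest of the family to light and to hormones, read 7.04, 7.04 and 7.19 on young arrays and 6.97, 7.04 and 6.91 on old ones. The ages overlapped. Its log2 difference was -0.12 with a 95% interval from -0.29 to 0.05 (adjusted p = 0.219, limma), an interval that lies wholly below the estimates of Per2 and Per3. Whether Per1 differs from Per2 in its response was not tested.

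The cryptochromes, which bind and block the CLOCK and ARNTL pair, did not pass. Cry1 read 11.56, 11.34 and 11.43 on young arrays and 11.37, 11.53 and 11.23 on old arrays, so that the ages overlapped. The difference was -0.06 with a 95% interval from -0.32 to 0.19 (adjusted p = 0.642, limma). Cry2 read 9.38, 9.09 and 8.95 on young arrays and 10.02, 9.45 and 9.71 on old arrays. Every old array was above every young one, by little where they came closest. Its difference was 0.59, a little larger than that of Per2, with a 95% interval from 0.13 to 1.04 and an adjusted p of 0.0553 in limma, just short of a call. On leaving out young replicate 1 the adjusted p was 0.0494, and on leaving out old replicate 2 it was 0.0454.

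The 2 REV-ERB receptors of the second loop were unlike in their spread. Nr1d2 read 12.77, 12.64 and 12.63 on young arrays and 13.12, 13.03 and 13.04 on old arrays at 1416958_at, with no overlap. The rise was 0.39 with a 95% interval from 0.24 to 0.54, or 1.31-fold (adjusted p = 0.00603, limma). Nr1d1, in contrast, read 7.65, 6.93 and 8.14 on young arrays and 7.61, 7.92 and 8.29 on old arrays. Its ages overlapped and its replicates scattered more than those of any other brightest clock probe set, with an SD of 0.61 in young and 0.35 in old cells, where the median tested probe set had 0.12 and 0.088. The difference was 0.36 with a 95% interval from -0.51 to 1.23 (adjusted p = 0.445, limma), which holds the value of Nr1d2.

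Dbp, an output transcription factor that CLOCK and ARNTL drive directly, rose at both of its probe sets. At 1438211_s_at it read 10.73, 10.77 and 10.85 on young arrays and 11.29, 11.64 and 11.56 on old arrays. The suffix of this probe set marks probes that can match more than 1 transcript. The difference was 0.71 with a 95% interval from 0.45 to 0.97, a 1.64-fold rise (adjusted p = 0.00492, limma). At 1418174_at it read 8.17, 8.47 and 8.67 on young and 8.97, 9.45 and 9.49 on old arrays. The ages were again separate, and the difference of 0.86 passed (adjusted p = 0.0199, limma), a call lost without old replicates 2 or 3.

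**Figure D3:**
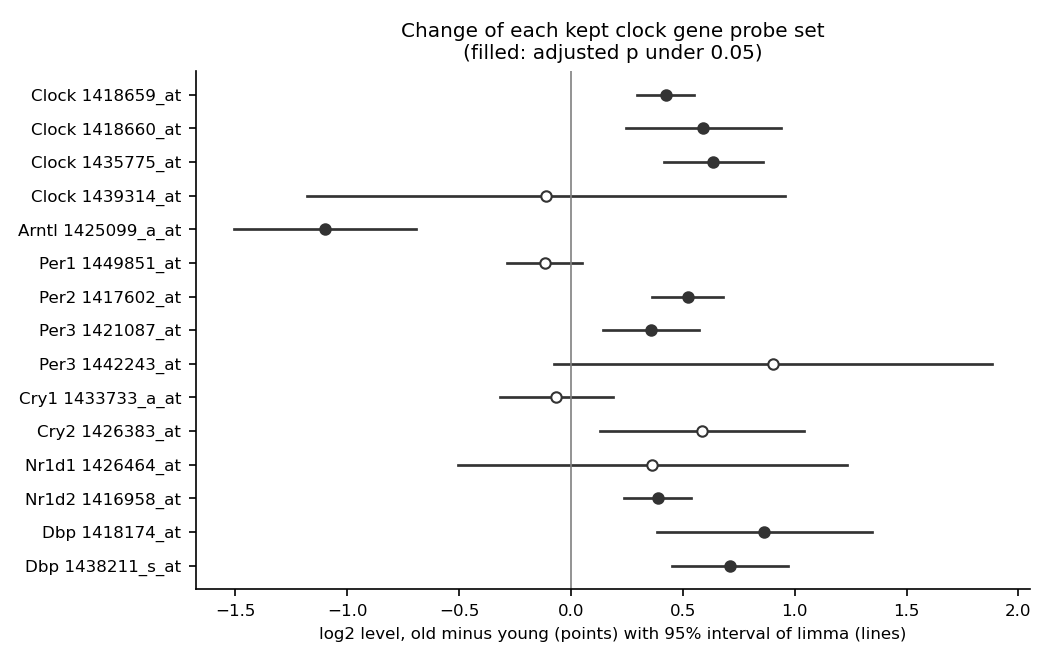
Log2 difference, old minus young, of the 15 tested clock gene probe sets (points) with the 95% interval of limma (lines); filled points passed an adjusted p of 0.05. The 9 filled points are Arntl below 0 and Clock (3 probe sets), Per2, Per3, Nr1d2 and Dbp (2 probe sets) above 0.

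Old replicates were not alike at every clock gene. Old replicate 1 was the lowest of the 3 at Arntl, Nr1d1, both Dbp probe sets and the brighter Per3 probe set. It was the highest of the 3 at Cry2, Per2, Nr1d2 and the 2 Clock probe sets 1418659_at and 1418660_at. These are single arrays, and no test bears on the order.

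The wider clock pathway was then taken as 7 lists of genes by role, holding 48 genes, of which 36 were tested by their brightest probe set. Of these 14 passed, 8 higher and 6 lower in old cells, and the median difference was 0.01. Over all named genes 40.6% passed, 22.0% higher and 18.5% lower, so the share of the pathway genes lay near the background. The 6 lower genes include Nfil3, which entered the test through its young arrays alone. Without old replicate 3 the count was 8. Members below are called by limma with the same adjustment over all tested probe sets, and differences are on the log2 scale.

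The paralogs of the activating pair were Npas2, which can stand in for CLOCK in the forebrain, and Arntl2, which can stand in for ARNTL. Arntl2 read 8.46, 8.35 and 8.86 on young arrays and 10.39, 10.32 and 10.75 on old arrays. The gap between the ages was several times the spread within them. It rose by 1.93 with a 95% interval from 1.49 to 2.38, or 3.82-fold (adjusted p = 0.00114), at 1 probe set, while its other probe set stayed at 2.14 on all arrays. Arntl and Arntl2 thus moved in opposite directions between the ages. Npas2 was under log2 4 on every array and was not tested.

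Of 5 tested repressors and modulators 1 rose and 3 were lower, against 22.0% higher and 18.5% lower over all named genes, and 1 of the 3 was Nfil3. Nfil3, the basic leucine zipper repressor that competes with DBP for D-box letters, read 6.82, 6.57 and 6.32 on young arrays and 2.41, 2.15 and 2.37 on old arrays. All old arrays were near the floor, so the size of the difference is a bound: against log2 4 it was at least 5.94-fold. Nfil3 passed the filter through its young arrays alone and so had to differ, and its values are given as a description. Ciart, a repressor of the CLOCK and ARNTL pair whose window held 3 E-boxes, read 7.16, 6.96 and 7.41 on young and 7.64, 7.73 and 7.96 on old arrays. The rise of 0.60 (adjusted p = 0.0252) was lost when young replicate 1, old replicate 2 or old replicate 3 was dropped. Bhlhe40, an E-box repressor, had a difference of -0.32 (adjusted p = 0.023), lost without old replicates 1 or 3, and its paralog Bhlhe41 stayed at 2.14. Timeless, which in mammals acts mainly at the replication fork, had -0.57 (adjusted p = 0.00951) and -0.77 at its second probe set. Cipc, an inhibitor of CLOCK, did not pass at its brightest probe set (0.13, adjusted p = 0.129), while the other 2 rose by 0.37 and 0.35.

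The PAR bZIP factors Tef and Hlf, which share the D-box with Dbp, rose. Tef read 11.69, 11.70 and 11.74 on young arrays and 12.02, 12.05 and 12.09 on old arrays, a rise of 0.34 (adjusted p = 0.00395). Hlf read 11.17, 11.01 and 11.11 on young arrays and 11.34, 11.53 and 11.34 on old arrays, a rise of 0.31 (adjusted p = 0.0305). The ages were separate for both at these probe sets, and the Hlf call held without young replicate 1 and was lost when any other array was dropped. The other tested Tef probe set, 1438033_at, had 0.30 with overlapping ages and did not pass (adjusted p = 0.307).

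Of the ROR receptors, which activate Arntl through the element that the REV-ERB receptors also bind, Rorb fell and Rora depended on the probe set. Rorb had a difference of -0.42 at its brightest probe set (adjusted p = 0.0182), which did not hold without young replicate 3, old replicate 1 or old replicate 3, and of -0.85 at another (adjusted p = 0.000898). At 1455799_at Rorb had -0.49 and did not pass (adjusted p = 0.0929, limma). Rora had -0.01 at its brightest probe set (adjusted p = 0.935), while 1436325_at rose by 0.81 and 1436326_at by 0.36 (adjusted p = 0.0102 and 0.00994). Rora 1424034_at and 1420583_a_at had -0.01 and 0.05 and did not pass (adjusted p = 0.969 and 0.724, limma).

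Of 5 tested genes used as readouts of clock output 3 rose and 1 fell, against 22.0% higher and 18.5% lower over all named genes, and 4 more were under the filter. Usp2, a deubiquitinase, read 11.79, 11.85 and 11.78 on young arrays and 12.11, 12.16 and 12.23 on old ones, a rise of 0.36 (adjusted p = 0.00503). Its other tested probe set, 1417168_a_at, had 0.23 with overlapping ages and did not pass (adjusted p = 0.155). Tsc22d3, which is also induced by glucocorticoids, rose by 1.34 (adjusted p = 0.00367). Id2, a helix-loop-helix inhibitor, rose by 0.30, which no longer passed without any 1 of young replicates 1 and 3 and old replicates 2 and 3. Nampt, the NAD salvage enzyme, had a difference of -0.46 at its brightest probe set (adjusted p = 0.0153), lost without old replicate 3. It had -0.37 at 1417190_at (adjusted p = 0.0201) and -0.66 at 1448607_at, which did not pass (adjusted p = 0.218). Wee1, a mitotic kinase under E-box control in liver, had 0.13 (adjusted p = 0.235).

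Of 13 tested enzymes that mark or spare clock proteins for decay, namely kinases, phosphatases, ligases and deubiquitinases, 1 rose, Usp2, and 1 fell, Csnk1d. Over all named genes 22.0% were higher and 18.5% lower. Csnk1d, the casein kinase that phosphorylates PER proteins, had a difference of -0.31 at its brightest probe set (adjusted p = 0.00872), with -0.13 to -0.32 and no pass at the other 4. Its close relative Csnk1e had -0.27 at its brightest probe set (adjusted p = 0.247) and fell by 1.00 at 1417176_at (adjusted p = 0.0322). The difference of Btrc, a ligase subunit for PER, was 0.17 (adjusted p = 0.274). Among 9 cofactors 1 rose and none fell, against the same 22.0% and 18.5% over all named genes. The gene that rose was Senp1, a SUMO protease, with 0.56 at its brightest probe set (adjusted p = 0.00143). Its other tested probe set, 1428925_at, had 0.04 with overlapping ages (adjusted p = 0.804). The coactivator Crebbp had 0.11 (adjusted p = 0.248) and the deacetylase Sirt1 -0.06 (adjusted p = 0.724).

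Genes that serum, cAMP or glucocorticoids switch on quickly, as they do Per1, formed a separate list, since Per1 and Per2 respond to such signals as well as to the clock. Of 9 tested, 5 were lower and 1 higher, against 18.5% lower and 22.0% higher over all named genes, and 1 of the 5 was Nr4a1, which entered through its young arrays alone. Fos, a subunit of the AP-1 factor, read 12.25, 12.13 and 12.35 on young arrays and 10.97, 11.08 and 11.32 on old arrays, a difference of -1.12 (adjusted p = 0.00143). Egr1 had -0.55 and Dusp1 -0.49 (adjusted p = 0.00244 and 0.00145), and Crem -0.39, a call lost without old replicates 1 or 3. Nr4a1 read 4.84, 5.92 and 5.15 on young arrays and 2.32, 2.14 and 2.14 on old ones, at least 2.47-fold lower against log2 4. Among the glucocorticoid targets Klf9 rose by 0.24 at its brightest probe set (adjusted p = 0.0156), which did not hold without young replicate 3 or old replicate 2. It rose by 0.25 at 1428289_at (adjusted p = 0.0257) and did not pass at 1422264_s_at, 1436763_a_at and 1456341_a_at. Of the other glucocorticoid targets Fkbp5 had 0.04 (adjusted p = 0.779) and Sgk1 -0.11 (adjusted p = 0.164). Zbtb16, another such target, had 0.53 at its brightest probe set (adjusted p = 0.059) and 1.48 at 1439163_at (adjusted p = 0.0186), which lay above log2 4 on 1 young array and all old ones.

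**Figure D4:**
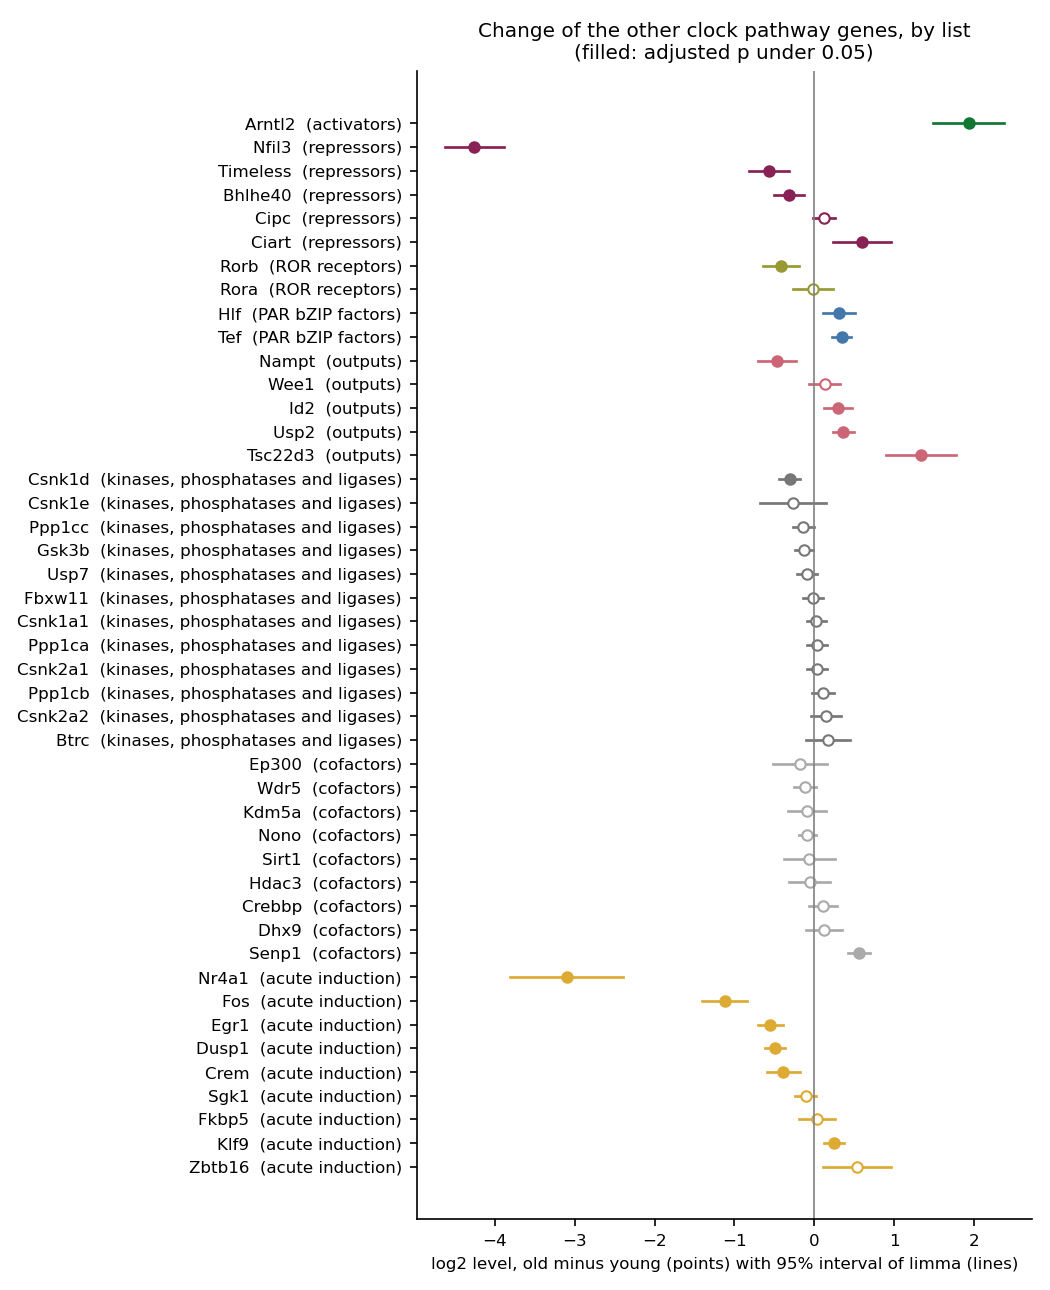
Log2 difference, old minus young, of the brightest tested probe set of each further clock pathway gene and of the acute induction genes (points) with the 95% interval of limma (lines), coloured by list; filled points passed an adjusted p of 0.05. Usp2, in both the output and the enzyme list, is drawn once. Nfil3 and Nr4a1 lie farthest to the left, their old arrays being near the floor so that the size is a bound. Arntl2 at 1.93 and Tsc22d3 at 1.34 lie farthest to the right.

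Per2 had the smallest p of the clock genes by their brightest probe sets, and its pattern over the 6 arrays was compared with that of the other named genes. The 5 most like it by Pearson's r of log2 levels were the adhesion molecule Chl1, Ptgfrn, the GTPase Nras, Zhx1 and the transcription factor Tfcp2, with r from 0.996 to 0.999. Of 10046 genes 737 had an r above 0.95 and 746 one below -0.95, and a gene whose levels part the ages scores high in this measure whatever it does within them. Within the clock genes r with Per2 was 0.986 for Clock, 0.965 for Nr1d2, 0.919 for Per3, 0.901 for Dbp and -0.95 for Arntl. For the genes that did not pass, it was 0.85 for Cry2, 0.218 for Nr1d1, -0.257 for Cry1 and -0.761 for Per1. With the mean of each age taken away, r with Per2 was -0.944 for Nr1d1, -0.599 for Per1, -0.488 for Dbp and -0.349 for Arntl. It was 0.0967 for Cry1, 0.389 for Nr1d2, 0.438 for Cry2, 0.465 for Per3 and 0.641 for Clock. By this measure the 5 genes most like Per2 were Rif1, Smc5, Bmt2, Kif5b and Kpnb1, at 0.993 to 0.996. All these r values are over 6 arrays that share a normalization, and they describe these arrays alone.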

How the data were processed

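Total RNA of 6 samples was labelled with biotin and hybridised to 1 array each, per the labels' protocols. The authors deposited 1 log2 level for each probe set, and GCRMA is the tool in the submitters' processing notes. Its version, the chip definition and the scanner software were not given in the sources used here. That the scale is log2 follows from the range of the values. Gene names come from the platform annotation, with symbols checked by Entrez identifier against RefSeq names of GRCm38.p6 (99.4% matched, 0 changed). The annotation gave 1 symbol to 34945 of them, several to 932 and no symbol here to 9160, and 64 controls were left out.

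Probe sets above log2 4 on at least 3 arrays entered limma (version 3.58.1, R 4.3.3; lmFit, then eBayes, two-sided), p-values being adjusted by Benjamini-Hochberg over 19858 probe sets, at a threshold of 0.05. A gene stands for its brightest tested probe set. At least N-fold is computed against log2 4 where every array of an age lay under it. Precision is limited by having 3 arrays per age. The fit and the motif search were tested on simulated data. Promoter sequences are RefSeq's, build GRCm38.p6. Figures were drawn with matplotlib 3.10.9.

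The members, lists and tests were chosen with earlier results of these data known. Every member probe set is given. Of the other lists, genes past the threshold and up to 4 others per list could be named, plus the 5 genes most like the member of smallest p by each of 2 measures. Further probe sets of named genes were picked after their values were seen. Alternatives were other filters, scalings, variance models, array weights, thresholds, the replicate number as a block, the mean of a gene's probe sets, and leaving out each array.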

Additional observations from a re-analysis of the deposited data

How the results depend on the processing

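Over 14 other settings each, Arntl, Per2, Nr1d2, the brightest Clock and Dbp probe sets and Clock 1435775_at kept their direction and their call. Leaving out 1 array at a time gave 6 to 10 clock probe sets called, 5 to 6 clock genes and 8 to 14 other pathway genes. The same gave 5010 to 6838 probe sets called in all, 2768 to 3961 higher and 2177 to 3301 lower. Without any filter, more probe sets entered both the fit and the adjustment, and 6 clock probe sets and 9 other pathway genes were called. Per3, Ciart, Hlf, Bhlhe40, Rorb, Id2, Nampt and Crem no longer passed, while Gsk3b then did (-0.13, adjusted p = 0.0334, limma). At an adjusted p of 0.01 limma called 3777 probe sets, 2148 higher and 1629 lower, 6 of them clock probe sets. Cry2 passed when arrays were centred on their medians (adjusted p = 0.0473), with eBayes trend (0.0312) and by the gene mean fit (0.0407), where Per3 did not pass and the count stayed at 6. The only changes of sign were in results that had not passed. With array weights Clock 1439314_at became 0.0895 and Rora 0.032. With 1 array left out, Clock 1439314_at ran from -0.46 to 0.36, Cry1 from -0.14 to 0.0094, Rora from -0.070 to 0.069, Fbxw11 from -0.041 to 0.014, Sirt1 from -0.18 to 0.038, Hdac3 from -0.16 to 0.032 and Fkbp5 from -0.049 to 0.097; the cause was not tested.

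Samples of both ages share replicate numbers. Deviations from the age means correlated at -0.16, -0.11 and 0.16 between same-numbered samples, so the numbers were not taken to pair them, and not every sample correlated best with its own number (young replicate 2 with old replicate 1, 0.25). With the replicate block 5600 probe sets were called, 3144 higher and 2456 lower, among them 9 clock probe sets and 11 other pathway genes; Per3 did not pass (0.36, adjusted p = 0.0616) and Cry2 did (0.59, adjusted p = 0.0351). The block also ended the calls of Hlf (adjusted p = 0.0985), Bhlhe40 (0.064), Nampt (0.0598) and Klf9 (0.0539).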
